A study of Mus musculus with 8 samples.

Results

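The genes described here code for the subunits of potassium, calcium, sodium and pacemaker (HCN) channels. They were taken by symbol (Kcn, Cacna1, Cacna2d, Cacnb, Cacng, Scn and Hcn families), which gave 136 of the 34536 symbols measured: 92 potassium, 26 calcium, 14 sodium and 4 HCN channel genes. The families were chosen with earlier results of these data known. Messenger RNA was sequenced from mouse endocardial and endothelial cells that were taken by FACS (flow sorting) from embryoid bodies, clumps of differentiating stem cells. There were 4 endocardial libraries, lettered A, C, E and G, and 4 endothelial ones, lettered B, D, F and H. The comparison sets cells labelled as the lining of the heart (endocardial) against cells labelled endothelial in this culture. The libraries labelled endothelial had lower levels of most endothelial marker genes, as given below. The sources used here give neither the stem cell line and its genotype, nor the day of culture, nor the markers used to sort either cell type. No label says that the libraries came from separate cultures, so p-values rest on a spread between samples that may be technical.

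Channel genes fall into pore-forming subunits, which make the path for the ion, and auxiliary subunits, which set how the pore opens or how much of it reaches the cell surface. Inward rectifier and K2P potassium channels hold the resting potential, voltage-gated potassium channels end the action potential, voltage-gated sodium and calcium channels start and shape it, and HCN channels carry the inward current that paces the sinus node. Endothelial cells do not fire action potentials. In them potassium channels set the driving force for calcium entry, and calcium-activated potassium channels take part in the relaxation of vessels.

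Total counts ran from 6677667 to 11369363 per library, at which a count of 0 allows up to 0.267 to 0.438 CPM (taken at 3 counts, for counting error only; CPM is the count relative to the library total after scaling). The 2 groups also differed in markers of cell types, from lists chosen with earlier results of these data known. Of all tested genes, 1.42% were called higher and 1.16% lower in endocardial libraries. Sums below cover all genes of a list, called or not. Of 16 endothelial marker genes, 13 were called higher in the endocardial libraries. All 16 summed to between 1586 and 2011 CPM in the endocardial, against 477 to 925 CPM in the endothelial libraries. Of 8 endocardial marker genes 4 were called higher, and all 8 summed to 773 to 825 CPM in endocardial, against 231 to 407 CPM in endothelial libraries. Of 10 pluripotency genes 2 were called lower in the endocardial libraries (9 had an unadjusted p under 0.05, and DESeq2 called 7 and limma 9). All 10 summed to 33.1 to 138 CPM in endocardial, against 149 to 995 CPM in endothelial libraries, library F being the highest. Of 12 tested neural genes 5 were called lower in endocardial libraries (9 had an unadjusted p under 0.05, and DESeq2 and limma called 7). The 14 listed neural genes summed to 158 to 238 CPM in endocardial, against 215 to 359 CPM in endothelial libraries. Of 6 epithelial genes 2 were called lower (4 had an unadjusted p under 0.05, and DESeq2 called 4 and limma 3). All 6 summed to 538 to 891 CPM in endocardial, against 673 to 1230 CPM in endothelial libraries. Most of that sum was Krt8 and Krt18, which were not called. Krt8 averaged 429 CPM in endocardial and 424.6 CPM in endothelial libraries, and Krt18 267.5 and 247.1 CPM. Heart muscle genes (edgeR called 0 of 9 tested, with 4 whose unadjusted p was under 0.05; DESeq2 and limma called 1) summed to 220 to 452 CPM in endocardial and 158 to 332 CPM in endothelial libraries, and smooth muscle genes (edgeR called 0 of 7, with 1 whose unadjusted p was under 0.05; DESeq2 and limma called 0) to 1285 to 2136 CPM in endocardial and 641 to 1955 CPM in endothelial libraries. All 9 tested heart muscle genes had a log2 fold change above 0 (median 0.85). The 4 with an unadjusted p under 0.05 were higher in endocardial libraries (44.4%, against 5.65% of all tested genes). Of the 7 smooth muscle genes, 6 had a log2 fold change above 0, against 47.5% of all tested genes below 0. No marker of these lists was at 0 in all libraries. Their part in the differences of channel genes was not tested, and fewer cells of a type and less RNA per cell cannot be told apart in bulk samples.

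Few channel genes passed the test, and those that did moved in both directions. Of 61 channel genes with enough counts to be tested, 2 were higher in the endocardial libraries (Kcne3 and Kcnj5) and 3 were lower (Kcnj3, Kcnk1 and Hcn2) by edgeR's quasi-likelihood test at a Benjamini-Hochberg adjusted p below 0.05. These 5 were 8.2% of the tested channel genes, and 2.58% of all 13817 tested genes were called, 1.42% higher and 1.16% lower. An unadjusted p under 0.05 was reached by 30 channel genes (49.2%), 10 of them higher and 20 lower, and by 14.6% of all tested genes (5.65% higher and 8.99% lower). The 4 libraries of one group lay wholly apart from the 4 of the other in 21 channel genes (8 higher and 13 lower in endocardial, 34.4%), and in 9.76% of all tested genes (4.42% higher and 5.33% lower). The log2 fold change was below 0 in 40 of the 61, or 65.6%, and in 47.5% of all tested genes, and its median was -0.34 over the channel genes and 0.01 over all genes. Hcn2, Cacng4 and Kcnab3, counted among the lower genes, passed the filter mainly through the endothelial libraries, and 0 passed mainly through the endocardial ones. The filter thus favoured the direction of these 3, which do not bear on any lean to lower. Other fits called more, of the channel genes and of all genes, and each included the 5. DESeq2 called 14 (3 higher, 11 lower), or 23%, against 6.25% of all genes (2.4% higher, 3.85% lower). With voom weights limma called 19 (5 higher, 14 lower), or 31.1%, against 7.06% of all genes (2.97% higher, 4.09% lower). An edgeR fit that blocks on neighbouring letters (A with B, and so on), which no label pairs, also called 19 (5 higher, 14 lower), or 31.1%, against 8.71% of all genes (3.65% higher, 5.06% lower). The fits that leave out 1 library called between 2 of 72 tested channel genes (without G) and 7 of 67 (without B). These were 2.78%, against 1.08% of all genes, without G and 10.4%, against 3.27% of all genes, without B.

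**Figure D1:**
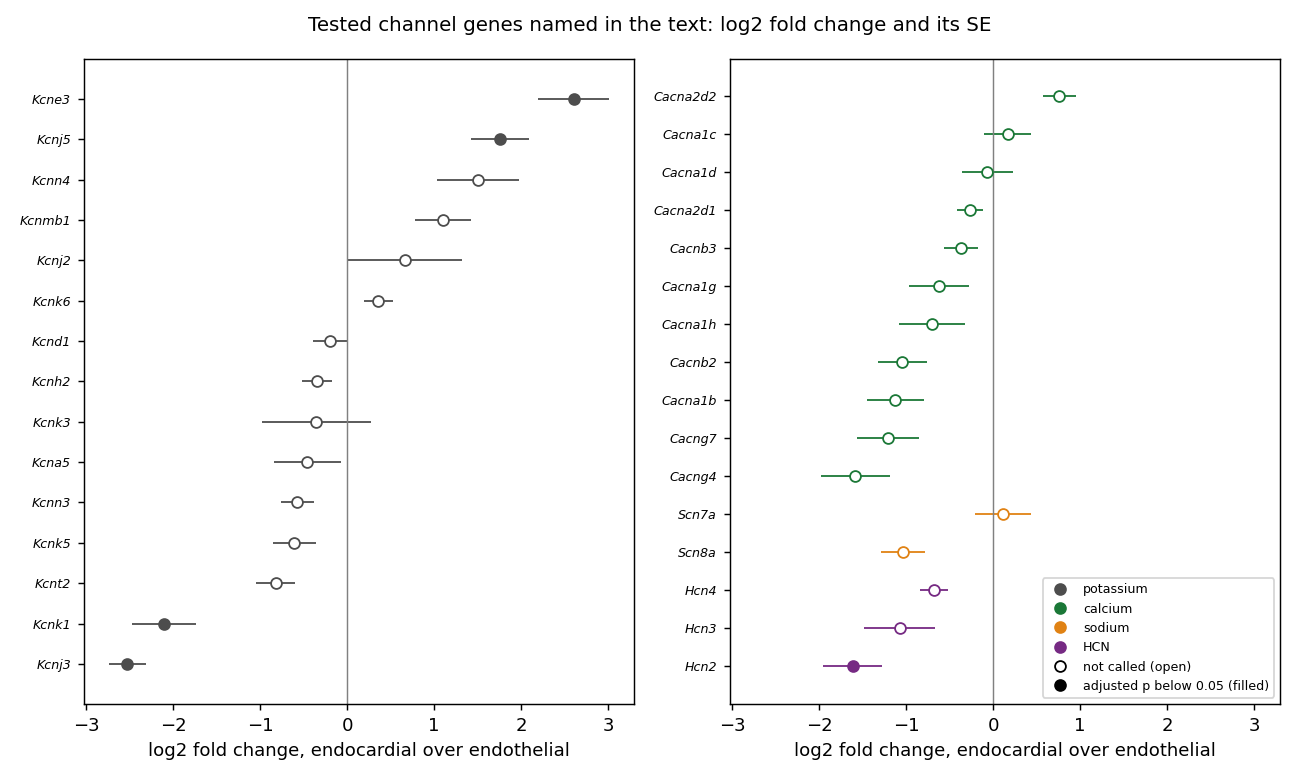
The log2 fold change of 31 tested channel genes that the text names (horizontal axis, endocardial over endothelial; bars are SE of the edgeR fit), potassium on the left and calcium, sodium and HCN on the right. Filled points mark the 5 genes with an adjusted p below 0.05, Kcne3 and Kcnj5 above 0 and Kcnk1, Kcnj3 and Hcn2 below it.

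Among the inward rectifiers, genes of subunits of 1 channel were called in opposite directions, Kcnj3 lower in every fit run and Kcnj5 higher by a narrower margin. Kcnj3 and Kcnj5 code for GIRK subunits, which assemble into the potassium channel that acetylcholine opens through G protein beta-gamma in the atrium and sinus node. The Kcnj3 subunit needs a partner such as the Kcnj5 subunit to reach the cell surface, while the Kcnj5 subunit can also form a channel by itself. Kcnj3 (chromosome 2, 55435970 to 55598145, mouse build GRCm38) had 1.68, 1.57, 1.61 and 1.75 CPM in endocardial libraries A, C, E and G, against 8.74, 9.78, 10.5 and 9.21 CPM in endothelial libraries B, D, F and H. Both groups were tight and far apart. Its log2 fold change was -2.52 (SE 0.21, edgeR adjusted p = 0.000209), which is 5.75-fold lower in endocardial libraries. Each of the 8 fits without 1 library kept this call, at log2 fold changes between -2.56 and -2.49.

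Kcnj5 (chromosome 9, 32314707 to 32344350) had 12.1, 7.33, 6.02 and 9.36 CPM in endocardial libraries A, C, E and G, against 3.92, 1.61, 2.09 and 2.51 CPM in endothelial libraries B, D, F and H. The endocardial libraries were spread over a wide range, but all lay above the endothelial ones. This gave a log2 fold change of 1.76 (SE 0.34, edgeR adjusted p = 0.0265), or 3.38-fold higher in endocardial libraries. This call rests on small margins: leaving out A, C, D, F, G or H each raised the adjusted p above the threshold, to 0.074, 0.0678, 0.0808, 0.0558, 0.0804 and 0.0533. DESeq2 gave an adjusted p of 0.000132 and limma one of 0.00532.

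Set against each other, the pair swapped places. The ratio of Kcnj5 to Kcnj3 CPM was 7.23, 4.67, 3.73 and 5.36 in endocardial libraries A, C, E and G, against 0.449, 0.164, 0.198 and 0.273 in endothelial libraries B, D, F and H. Per kilobase of exon, Kcnj5 made up 84.8% ± 3.48 of the pair in the endocardial and 22.5% ± 7.9 in the endothelial libraries (SD, n = 4 each). The summed level of the pair differed less, at 10.4 ± 2.71 CPM in endocardial and 12.1 ± 0.642 CPM in endothelial libraries, and those groups overlapped. The pair was singled out after its values were seen, so the ratio and the share are given with no test. The other GIRK genes, Kcnj6 and Kcnj9, named for the same reason, had 4 and 11 counts over all 8 libraries and were not tested.

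**Figure D2:**
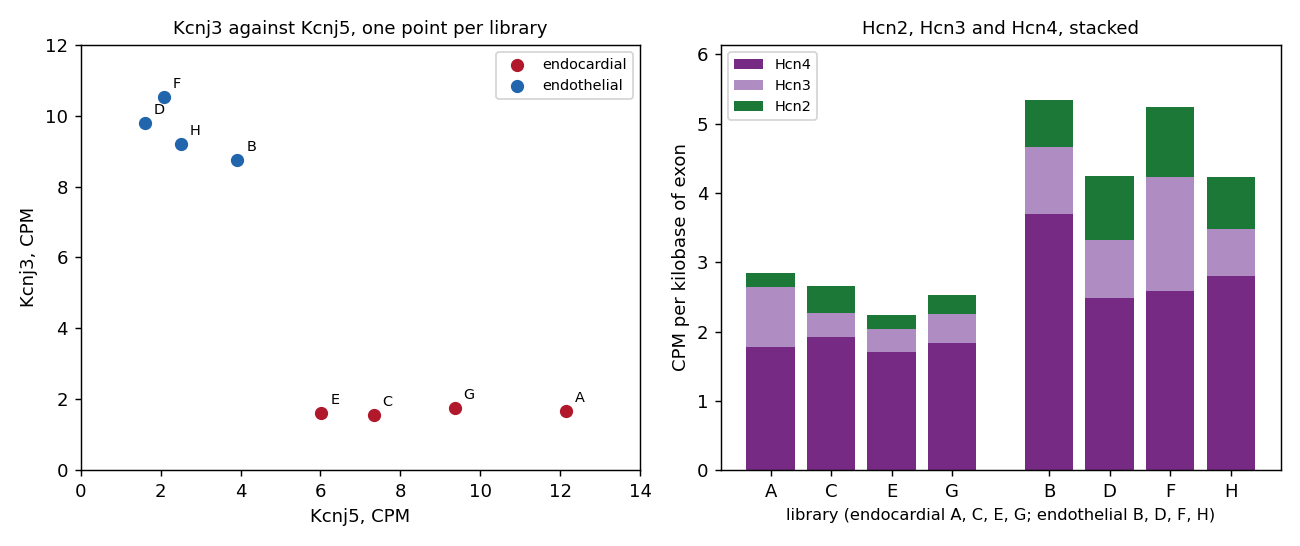
Left, Kcnj3 (vertical axis, CPM) against Kcnj5 (horizontal axis, CPM), 1 point per library: the endocardial libraries lie at the lower right and the endothelial libraries at the upper left, with no library between. Right, the levels of Hcn2, Hcn3 and Hcn4 per library, stacked, in CPM per kilobase of exon: Hcn4 is the largest part in every library, down to 49.5% in F, and each endothelial bar is taller than every endocardial one.

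The 250 bases before the RefSeq start of both genes are shown because these partner genes moved oppositely. They are from RefSeq (GRCm38.p6), 5′ to 3′ on the gene's strand. Capitals mark GGAAG (the core bound by ETS factors) and GGGCGG (the GC box), searched on both strands.
Kcnj3, chr2:55435720-55435969, plus strand: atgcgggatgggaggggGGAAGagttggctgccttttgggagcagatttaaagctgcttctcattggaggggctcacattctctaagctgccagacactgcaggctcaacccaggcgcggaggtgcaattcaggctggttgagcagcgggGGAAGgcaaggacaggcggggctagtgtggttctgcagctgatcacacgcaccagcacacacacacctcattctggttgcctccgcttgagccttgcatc
Kcnj5, chr9:32344345-32344594, minus strand: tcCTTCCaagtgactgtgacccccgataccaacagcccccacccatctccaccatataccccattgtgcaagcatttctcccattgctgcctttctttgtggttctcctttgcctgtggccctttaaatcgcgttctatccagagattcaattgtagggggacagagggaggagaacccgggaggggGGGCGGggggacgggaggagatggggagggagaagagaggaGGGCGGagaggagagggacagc
Kcnj3 holds 2 GGAAG and 0 GGGCGG matches, and Kcnj5 holds 1 and 2. Of 32841 promoter windows of the same length, 64.1% hold a GGAAG and 32.7% a GGGCGG, and a match is a description of letters, not a binding site. Both windows had a GC content near the 58% median of the 135 channel gene windows (58.4% for Kcnj3 and 58% for Kcnj5), above the 52.4% median of all windows. Of further motifs, the GATA search used AGATAA, the SOX search used AACAAT, the TATA box search used TATAAA and the E-box search used CAGCTG. The CAGCTG string was found in the window of Kcnj3 alone of the pair, and the other strings were in neither window. Shorter or variant forms of these motifs were not counted, so their absence is not shown. The genes also have different neighbours. Fli1, an ETS factor gene of endothelium that lies 77.9 kb from Kcnj5, had 25.3 ± 4.11 CPM in endocardial and 6.83 ± 1.67 CPM in endothelial libraries (SD, n = 4 each), a log2 fold change of 1.89 (edgeR adjusted p = 0.00117). Ets1, 292 kb away, had a log2 fold change of 1.12 (adjusted p = 0.0478), while Arhgap32, the nearest tested gene at 46.3 kb on the other side, had one of -0.43 (adjusted p = 0.142). The nearest tested gene to Kcnj3 is Rprm, 1350 kb away, at -0.50 (adjusted p = 0.383).

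The other inward rectifiers were not called. Kcnj2, the main inward rectifier of heart muscle and a flow-sensitive channel of endothelium, ranged from 2.75 to 16.9 CPM in endocardial and from 1.08 to 10.6 CPM in endothelial libraries (log2 fold change 0.67, SE 0.65, adjusted p = 0.723). The groups overlapped over most of their range, with G lowest among the endocardial and H among the endothelial libraries. Kcnj8, the pore of a channel closed by ATP in vessel walls, averaged 0.298 ± 0.29 CPM in endocardial and 0.274 ± 0.264 CPM in endothelial libraries (SD, n = 4) and was too low to test. Of the 15 inward rectifier genes, 11 were too low.

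Among K2P genes, which code for leak channels, 1 of 4 tested was called (25%, against 2.58% of all tested genes), and 10 were not tested. Kcnk1 (TWIK family; chromosome 8, 125995170 to 126030685) had 1.68, 3.14, 2.9 and 2.25 CPM in endocardial libraries A, C, E and G, against 7.04, 7.16, 18.6 and 10.4 CPM in endothelial libraries B, D, F and H. All endocardial libraries lay below all endothelial ones, and F, the library with the highest pluripotency sum, stood well above its group. Kcnk1 had a log2 fold change of -2.10 (SE 0.37, edgeR adjusted p = 0.0176), 4.3-fold lower in endocardial, and -1.72 without F (adjusted p = 0.0179). The call was lost without A (adjusted p = 0.0507), E (0.0639) or G (0.0688). Kcnk5, an acid-sensitive leak channel gene and the K2P gene with the most reads, had 16.8 to 22.5 CPM in endocardial and 21.6 to 49.5 CPM in endothelial libraries, again highest in F (log2 fold change -0.61, adjusted p = 0.277). Kcnk6 had 10.8 to 12.5 CPM in endocardial and 7.72 to 10.7 CPM in endothelial libraries. The groups of Kcnk6 did not overlap, and its log2 fold change of 0.36 (SE 0.17) had an adjusted p of 0.37.

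Kcne3 codes for a single-pass auxiliary subunit that, with the pore subunit of Kcnq1, gives a potassium channel that stays open. Kcne3 (chromosome 7, 100176502 to 100184869) had 6.2, 6.59, 15.5 and 5.12 CPM in endocardial libraries A, C, E and G, against 1.34, 1.61, 1.56 and 0.957 CPM in endothelial libraries B, D, F and H. Library E stood above the other endocardial libraries, and the lowest endocardial value was over the highest endothelial one. For Kcne3 the log2 fold change was 2.60 (SE 0.41, edgeR adjusted p = 0.0102), or 6.08-fold higher in endocardial libraries. No left-out library ended the call, and without E the log2 fold change was 2.11 (adjusted p = 0.0178). Kcnq1 itself had 67 counts over all libraries, 1.36 ± 0.972 CPM in endocardial and 0.506 ± 0.383 CPM in endothelial libraries (SD, n = 4), and was not tested. Kcne1, its auxiliary subunit in heart muscle, had 5 counts in all. Of 8 tested auxiliary potassium channel genes, of 15 in all, 6 had an unadjusted p under 0.05 (75%, against 14.6% of all tested genes). Of these, 4 were higher and 2 lower in endocardial libraries, and 4 of the 8 log2 fold changes were above 0. Kcnab3, among the 2 lower, passed the filter mainly through the endothelial libraries, so the filter favoured its direction. The groups did not overlap in the 4 that were higher (50%, against 9.76% of all tested genes): Kcne3, Kcnmb1 and, named after their values were seen, Kcnip3 and Kcnmb4. Kcnip3, whose protein tunes transient potassium currents, averaged 9.28 ± 0.903 CPM in endocardial and 6.42 ± 1.27 CPM in endothelial libraries (SD, n = 4 each; edgeR adjusted p = 0.254).

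**Figure D3:**
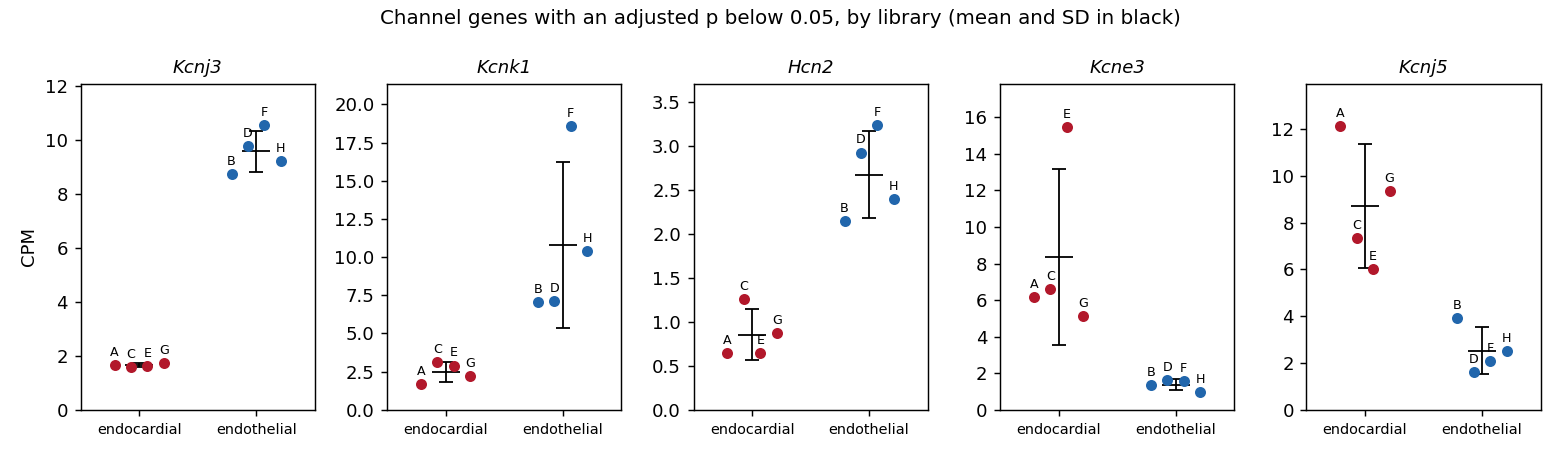
CPM (vertical axis, from 0, each panel with its own scale) of the 5 called channel genes in each library, with the group mean and SD in black. In every panel the 4 endocardial libraries (left) lie wholly below or wholly above the 4 endothelial libraries (right), and F is the highest of all 8 in Kcnj3, Kcnk1 and Hcn2.

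The same 250 bases are shown for the other called genes, with capitals as above. For Kcne3, which has a pair of RefSeq starts, the window of the downstream one is shown.
Kcne3, chr7:100178433-100178682, plus strand: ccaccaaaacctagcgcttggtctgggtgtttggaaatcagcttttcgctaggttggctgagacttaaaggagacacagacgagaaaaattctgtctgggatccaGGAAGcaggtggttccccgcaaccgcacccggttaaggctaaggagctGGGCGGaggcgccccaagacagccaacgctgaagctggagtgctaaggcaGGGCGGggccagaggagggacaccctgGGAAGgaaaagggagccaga
Kcnk1, chr8:125994852-125995101, plus strand: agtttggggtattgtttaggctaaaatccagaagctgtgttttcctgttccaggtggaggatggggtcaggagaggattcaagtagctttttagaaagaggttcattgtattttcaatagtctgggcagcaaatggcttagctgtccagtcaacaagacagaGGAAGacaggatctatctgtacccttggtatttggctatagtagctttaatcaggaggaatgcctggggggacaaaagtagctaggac
Hcn2, chr10:79716384-79716633, plus strand: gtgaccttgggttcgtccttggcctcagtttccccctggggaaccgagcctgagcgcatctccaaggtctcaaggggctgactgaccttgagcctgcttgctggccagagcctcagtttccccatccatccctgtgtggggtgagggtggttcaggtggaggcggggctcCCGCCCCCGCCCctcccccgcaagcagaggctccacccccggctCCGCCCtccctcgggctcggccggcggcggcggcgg
The GC content ran from 44.4% in Kcnk1, which holds 0 CpG, through 58% in Kcne3 to 70.4% in Hcn2, which holds 16 CpG. GGGCGG was found 3 times in Hcn2, 2 times in Kcne3 and 0 times in Kcnk1, and GGAAG 0, 2 and 1 times. The window of the upstream Kcne3 start differed, with a GC content of 46.8%, 2 GGAAG and 0 GGGCGG. The nearest tested neighbours of these 3 genes were not called: Polrmt, 14 bases beyond the end of Hcn2, had a log2 fold change of 0.01 (edgeR adjusted p = 0.988), Lipt2, 15.1 kb from Kcne3, one of 0.13 (adjusted p = 0.89) and Ntpcr, 247 kb from Kcnk1, one of 0.31 (adjusted p = 0.449).

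Of the 3 pacemaker channel genes that could be tested, Hcn2 alone was called, lower in endocardial libraries (33.3%, against 2.58% of all tested genes). All 3 had a log2 fold change below 0 with an unadjusted p under 0.05, and 8.99% of all tested genes were lower at that p. HCN channels open on hyperpolarization, and Hcn4 is the main one of the sinus node and early marks the first heart field. Hcn2 (chromosome 10, 79716634 to 79736108) had 0.645, 1.26, 0.645 and 0.873 CPM in endocardial libraries A, C, E and G, against 2.14, 2.92, 3.23 and 2.39 CPM in endothelial libraries B, D, F and H. These rest on 5, 12, 6 and 7 counts, against 24, 20, 31 and 20, and 1 of the 4 endocardial libraries passed the CPM cutoff of the filter, so the gene was tested through its higher group. Hcn2 had a log2 fold change of -1.62 (SE 0.33, edgeR adjusted p = 0.0347), 3.06-fold lower in endocardial. The call held without B (adjusted p = 0.0427) but was lost in the 7 other fits that leave out 1 library (A 0.107, C 0.0576, D 0.106, E 0.106, F 0.0754, G 0.108, H 0.0541) and with no filter on low counts (0.0592), while DESeq2 (0.0118) and limma (0.0201) called it.

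Hcn4 (chromosome 9, 58823412 to 58863175) had 10.8, 11.7, 10.4 and 11.2 CPM in endocardial libraries A, C, E and G, against 22.6, 15.2, 15.8 and 17.1 CPM in endothelial libraries B, D, F and H. The endocardial libraries differed by little among themselves and all lay below the endothelial ones, with B the highest. Its log2 fold change of -0.68 (SE 0.16) had an edgeR adjusted p of 0.0609, and DESeq2 (0.0114) and limma (0.0399) called it. Hcn3 had 1.4 to 3.61 CPM in endocardial and 2.87 to 6.78 CPM in endothelial libraries, overlapping through library A (log2 fold change -1.07, edgeR adjusted p = 0.241, DESeq2 0.181, limma 0.044). It overlaps Pklr on the other strand, which averaged 0.235 CPM in endocardial and 0.35 CPM in endothelial libraries. The summed level of these 3 genes was 12.5 to 15.1 CPM in endocardial and 21.6 to 28.8 CPM in endothelial libraries, with no overlap. Per kilobase of exon, Hcn4 made up 70.7% ± 5.88 of it in endocardial and 60.9% ± 8.82 in endothelial libraries, and Hcn2 made up 10.4% ± 3.27 in endocardial and 17.8% ± 3.83 in endothelial libraries (SD, n = 4 each).

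Calcium- and sodium-activated potassium channel genes had members on both sides, and edgeR called 0 of the 5 tested. An unadjusted p under 0.05 was reached by 4 (80%, against 14.6% of all tested genes), and DESeq2 called 1 and limma 3. Over all genes, edgeR called 2.58%, DESeq2 6.25% and limma 7.06%. The pair that endothelial cells use for hyperpolarization is coded by Kcnn3 and Kcnn4. Kcnn3 had 15, 14.3, 9.68 and 15.3 CPM in endocardial libraries A, C, E and G, against 22.9, 19.7, 16.1 and 21.9 CPM in endothelial libraries B, D, F and H. Kcnn4 had 5.68, 3.14, 3.76 and 2.5 CPM in the endocardial libraries, against 2.32, 1.61, 0.834 and 0.478 CPM in the endothelial libraries. In both genes the groups did not overlap, Kcnn3 lower and Kcnn4 higher in endocardial libraries. Log2 fold changes were -0.57 (SE 0.18, edgeR adjusted p = 0.156) for Kcnn3 and 1.50 (SE 0.47, edgeR adjusted p = 0.143) for Kcnn4. The fit that blocks on neighbouring letters called both (adjusted p = 0.0204 for Kcnn3 and 0.0212 for Kcnn4). By limma, Kcnn3 was called (adjusted p = 0.0399) and Kcnn4 was not (0.0721), and DESeq2 called neither (0.0876 for Kcnn3 and 0.0666 for Kcnn4). Kcnt2, a sodium-activated channel gene, had 3.74 to 6.74 CPM in endocardial and 8.56 to 10.2 CPM in endothelial libraries (log2 fold change -0.82, edgeR adjusted p = 0.0934, DESeq2 0.016). Kcnma1, the pore of the large-conductance channel, had 1.24 ± 0.557 CPM in endocardial and 1.08 ± 0.372 CPM in endothelial libraries (SD, n = 4) and was not tested. Kcnmb1, its auxiliary subunit in smooth muscle, had 1.94 to 3.66 CPM in endocardial and 1.02 to 1.43 CPM in endothelial libraries (log2 fold change 1.10, edgeR adjusted p = 0.112, DESeq2 0.13, limma 0.0235).

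Voltage-gated potassium pore genes were mostly low: 11 of 30 were tested, and edgeR called 0 of them. The log2 fold change was below 0 in 8 (72.7%, against 47.5% of all tested genes). An unadjusted p under 0.05 was reached by 4 (36.4%, against 14.6% of all tested genes), and DESeq2 called 1 and limma 3. Over all genes, edgeR called 2.58%, DESeq2 6.25% and limma 7.06%. Kcnh2, whose channel repolarizes heart muscle, was the voltage-gated potassium gene with the most reads. It had 16.6 to 20.7 CPM in endocardial and 18.8 to 30.3 CPM in endothelial libraries (log2 fold change -0.35, adjusted p = 0.415). Kcnd1, a transient outward current gene, averaged 9.46 ± 2.16 CPM in endocardial and 10.8 ± 0.743 CPM in endothelial libraries (edgeR adjusted p = 0.73). Kcna5, of the atrial ultrarapid current, averaged 2.42 ± 1.19 CPM in endocardial and 3.37 ± 0.746 CPM in endothelial libraries (edgeR adjusted p = 0.667). The leak channel gene Kcnk3 averaged 1.84 ± 1.06 CPM in endocardial and 2.3 ± 1.68 CPM in endothelial libraries (SD, n = 4 in all 3 genes; edgeR adjusted p = 0.871). Kcnd2 was too low to test, with 9 counts in all.

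No calcium channel gene was called by edgeR among 17 tested of 26. An unadjusted p under 0.05 was reached by 5 (29.4%, against 14.6% of all tested genes). Among the 5, Cacng4 passed the filter mainly through the endothelial libraries. DESeq2 called 5 and limma 4. Over all genes, edgeR called 2.58%, DESeq2 6.25% and limma 7.06%. The median log2 fold change of the 17 was -0.34. Of the pores, Cacna1h and Cacna1g had the most reads, both of the T-type, which open near the resting potential and act in pacemaking. Cacna1h had 32, 37.4, 37.5 and 17.2 CPM in endocardial libraries A, C, E and G, against 37.5, 67.8, 74.9 and 22.1 CPM in endothelial libraries B, D, F and H. Cacna1g had 13.9, 20.5, 14.5 and 6.24 CPM in the endocardial libraries, against 18.3, 28.8, 25.6 and 13 CPM in the endothelial libraries. In both genes the groups overlapped, with G lowest among the endocardial and H lowest among the endothelial libraries. Their log2 fold changes were -0.70 (SE 0.38, adjusted p = 0.465) for Cacna1h and -0.63 (SE 0.35, adjusted p = 0.474) for Cacna1g. Between neighbouring letters the endocardial library was the lower one in both genes each time. The fit that blocks on them called both (adjusted p = 0.0374 for Cacna1h and 0.0271 for Cacna1g) and 7 calcium channel genes in all. That fit called 8.71% of all genes. The remaining T-type pore gene, Cacna1i, averaged 2.27 ± 0.992 CPM in endocardial and 1.16 ± 0.572 CPM in endothelial libraries (SD, n = 4 each; log2 fold change 0.97, edgeR adjusted p = 0.402). Of the L-type pores, Cacna1c, the main one of heart muscle, averaged 10.3 ± 3.54 CPM in endocardial and 9.21 ± 1.81 CPM in endothelial libraries, and Cacna1d 5.12 ± 2 CPM in endocardial and 5.36 ± 0.421 CPM in endothelial libraries (SD, n = 4 each; edgeR adjusted p = 0.848 for Cacna1c and 0.954 for Cacna1d). Cacna1b, the N-type pore of nerve endings, had 2.04 to 6.46 CPM in endocardial and 7.88 to 12.3 CPM in endothelial libraries (log2 fold change -1.13, edgeR adjusted p = 0.115, DESeq2 0.0251).

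Auxiliary calcium channel subunits differed in direction by gene. Cacna2d2, an alpha2-delta subunit that brings pores to the surface, had 24.8, 30.2, 20.1 and 18.1 CPM in endocardial libraries A, C, E and G, against 11.2, 15.6, 14 and 14.3 CPM in endothelial libraries B, D, F and H. All endocardial libraries lay above all endothelial ones (log2 fold change 0.76, SE 0.19, edgeR adjusted p = 0.0659, DESeq2 0.0107, limma 0.0196). Cacna2d1, its relative in muscle, had a log2 fold change of -0.27 (SE 0.15, edgeR adjusted p = 0.485), at 25.9 ± 4.3 CPM in endocardial and 31.1 ± 4.18 CPM in endothelial libraries (SD, n = 4). Of the beta subunits, Cacnb2, the cardiac one, had 2.37 to 4.3 CPM in endocardial and 5.38 to 8.34 CPM in endothelial libraries (log2 fold change -1.05, edgeR adjusted p = 0.0883, DESeq2 0.0189). Cacnb3 had 26.9 to 48.4 CPM in endocardial and 38.6 to 62 CPM in endothelial libraries (log2 fold change -0.37, edgeR adjusted p = 0.457). The gamma subunits Cacng4 and Cacng7, which in brain also accompany AMPA receptors, had log2 fold changes of -1.58 (edgeR adjusted p = 0.0691, DESeq2 0.0308, limma 0.0498) and -1.21 (edgeR adjusted p = 0.121, DESeq2 0.0255, limma 0.114). Cacng7 was highest in F at 27.8 CPM, against 4.91 to 10.2 CPM in the endocardial libraries, and Cacng4, which passed the filter through its endothelial libraries, had 0.624 to 1.36 CPM in endocardial and 1.44 to 3.8 CPM in endothelial libraries.

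Sodium channel genes were low, and edgeR called 0 of the 7 tested of 14. An unadjusted p under 0.05 was reached by 3 (42.9%, against 14.6% of all tested genes), and DESeq2 and limma called 1. Over all genes, edgeR called 2.58%, DESeq2 6.25% and limma 7.06%. Scn8a, a pore gene of the nervous system, had 5.55, 6.17, 4.41 and 7.98 CPM in endocardial libraries A, C, E and G, against 10.7, 13.7, 16.2 and 8.97 CPM in endothelial libraries B, D, F and H. All endocardial libraries lay below the endothelial ones (log2 fold change -1.04, SE 0.25, edgeR adjusted p = 0.0638, DESeq2 0.006, limma 0.0125, and 0.0486 without H). Scn7a, of the sodium-sensing type, averaged 4.42 ± 1.71 CPM in endocardial and 4.07 ± 0.864 CPM in endothelial libraries (SD, n = 4 each; edgeR adjusted p = 0.923).

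Compared per length, auxiliary and leak channel genes stood at the top. The highest level was that of Cacnb3, at 9.87 CPM per kilobase of exon in endocardial and 12.8 in endothelial libraries, followed by Kcnk5 at 6.04 in endocardial and 9.19 in endothelial libraries. Kcnh2 stood at 3.96 CPM per kilobase in endocardial and 5.05 in endothelial libraries, and Cacna1h at 3.18 in endocardial and 5.18 in endothelial libraries. Kcne3 stood at 4.69 CPM per kilobase in endocardial libraries, against 0.768 in endothelial libraries. Kcnj3 was the reverse, at 0.317 CPM per kilobase in endocardial and 1.83 in endothelial libraries. The summed CPM of the potassium genes was 224 ± 18.5 in endocardial and 267 ± 33.7 in endothelial libraries, that of the calcium genes 198 ± 39.5 in endocardial and 255 ± 63.1 in endothelial libraries, and that of the sodium genes 30.7 ± 3.25 in endocardial and 39.1 ± 6.22 in endothelial libraries (SD, n = 4 each), and in all 3 the groups overlapped. Library F was the highest endothelial library in 30 of the 61 tested channel genes (49.2%) and in 35.4% of all tested genes. The 75 channel genes not tested had between 0 and 103 counts over the 8 libraries and together made up 25.3 to 35.4 CPM in endocardial and 32.7 to 63.8 CPM in endothelial libraries, the most in F.

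**Figure D4:**
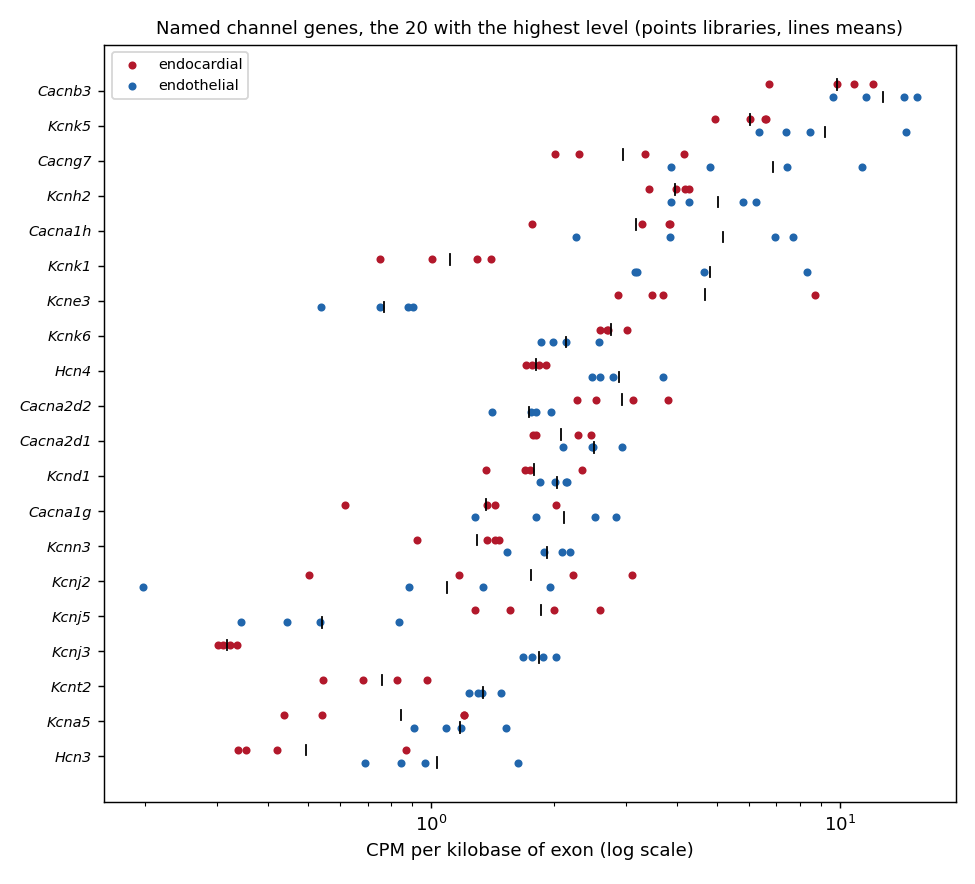
The 20 channel genes with the highest mean level per length among those tested and named, in CPM per kilobase of exon on a log axis, each library a point and each group mean a line, with endocardial libraries above endothelial ones in each row. The groups are clearly split in Kcnk1, Kcne3, Kcnj5 and Kcnj3, Kcne3 and Kcnj5 toward higher and Kcnk1 and Kcnj3 toward lower endocardial levels. They also do not overlap in genes that edgeR did not call: Cacna2d2 and Kcnk6 (higher in endocardial) and Hcn4, Kcnn3 and Kcnt2 (lower).

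Other genes that move the same ions were not called. By edgeR, 0 of 18 tested genes of calcium stores and exchange, 0 of 6 sodium pump genes and 0 of 11 mechanosensitive and TRP channel genes were called. The called share of all tested genes was 2.58%, so lists of this size hold few calls at that share. An unadjusted p under 0.05 was reached by 4 (22.2%), 2 (33.3%) and 3 (27.3%) of these lists, against 14.6% of all tested genes. DESeq2 called 1, 0 and 1 of them and limma 1 in each list, against 6.25% (DESeq2) and 7.06% (limma) of all genes. Trpc6, a receptor-operated cation channel gene, had 3.8 ± 1.22 CPM in endocardial and 1.37 ± 0.374 CPM in endothelial libraries (SD, n = 4 each), a log2 fold change of 1.45 (SE 0.34, edgeR adjusted p = 0.0543). Atp2a3, a calcium pump of the endoplasmic reticulum, averaged 95 ± 22.4 CPM in endocardial and 38.1 ± 25.8 CPM in endothelial libraries (log2 fold change 1.31, SE 0.39, adjusted p = 0.133). Piezo1, the channel by which endothelium senses flow, averaged 371 ± 65.2 CPM in endocardial and 307 ± 51 CPM in endothelial libraries (log2 fold change 0.27, adjusted p = 0.534). These 3 were named from the lists after their values were seen.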

How the data were processed

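Salmon, which estimates counts for transcripts, DESeq2 and genome build mm10 are named per the submitters' processing notes. The deposited table gives the authors' estimated counts by gene symbol for 8 libraries made, per the labels' protocols, with a kit that keeps strand. The deposited counts were whole numbers with a different total in each library. The sources used here do not give the strand setting of the counting. Kcnj3, Kcnk1 and Kcne3 overlap annotated genes on the other strand.

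Genes with low counts were removed by filterByExpr (minimum count 10 and total 15, or about 1.13 CPM in 4 libraries). After TMM scaling, the robust quasi-likelihood F-test of edgeR 4.0.16 (R 4.3.3) was run, endocardial minus endothelial, with p-values adjusted by the Benjamini-Hochberg method over all 13817 tested genes. SEs were derived from the size of the log2 fold change and its F statistic, as their quotient with F under a root. Of the 61 tested channel genes, 45 passed the CPM cutoff in all 8 libraries and 3 (Hcn2, Cacng4 and Kcnab3) mainly through the endothelial libraries. The fit was tested on simulated counts. Coordinates and exon lengths (all exons merged) are from GENCODE M21 of GRCm38, the assembly of mm10, which holds all 136 symbols. RefSeq promoter windows were found for 99 of them.

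Members and lists were chosen with earlier results of these data known. Named genes were those called, those at an unadjusted p under 0.05 (up to 10 for potassium and 6 for each other ion), the most abundant per ion and a fixed set of cardiac and endothelial channels; some genes that this rule takes are not reported here, though they count in the totals. Alternatives were DESeq2 1.42.0, limma 3.58.1 with voom quality weights, RLE and upper-quartile scaling, other filters, no robust estimation, a threshold of 0.01, abundant genes left out, neighbouring letters as a block, and each library left out.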

Additional observations from a re-analysis of the deposited data

Results flagged for a closer look

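In 7 of 122 groups of 4 libraries screened (the 61 tested channel genes in each group), 1 library lay far from the other 3 by Dixon's criterion, and chance flags about 1 in 20; 5 of the 7 are given here. Among the endocardial libraries, Kcne3 was 15.5 CPM in E and 5.12 to 6.59 CPM in the others and Hcn3 was 3.61 CPM in A and 1.4 to 1.75 CPM in the others. Of genes outside the rule for names, Kcna6 was 13.1 CPM in C (others 8.91 to 9.36), Cacna1i 3.74 CPM in G (others 1.61 to 1.94) and Kcnab3 1.37 CPM in G (others 0.646 to 0.753).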

How the results depend on the processing

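Kcnj3 and Kcne3 kept their call in every alternative run except the threshold of 0.01, at which Kcne3 was lost (adjusted p = 0.0102). At that threshold 0 channel genes were called higher and 1 lower (1.64% of those tested, against 0.753% of all genes). DESeq2 called 3 higher and 11 lower, limma with voom weights 5 higher and 14 lower, and a fit that blocks on pairs of neighbouring letters (replicate block) 5 higher and 14 lower. In that order, these fits called 23%, 31.1% and 31.1% of the tested channel genes, against 6.25%, 7.06% and 8.71% of all genes. No label says that neighbouring letters belong together, so the block is an alternative and not a paired design. That fit called 14 genes beyond the 5, among them Cacna1h (adjusted p = 0.0374), Cacna1g (0.0271), Kcnn3 (0.0204) and Kcnn4 (0.0212). With no filter 5 of 133 channel genes were called (3.76%, against 1.59% of all genes), Kcnt1 in place of Hcn2. Leaving out 1 library gave 1 to 2 higher and 1 to 5 lower, while calls over all genes ran from 0.961% (without E) to 3.27% (without B). Medians of log2 fold change over channel genes ran from -0.49 (without A) to -0.22 (without F). The direction turned in uncalled genes: Kcnk3 was 0.0412 by limma and -0.66 to 0.0899 with 1 library left out, where Scn7a was -0.15 to 0.29, Cacna1c -0.0688 to 0.36 and Cacna1d -0.35 to 0.14. Of 558 values of named genes, 500 kept direction and call, 31 gained a call, 21 lost one and 6 turned. The cause was not tested. Genes near 1 CPM rest on few counts per library, which limits what can be called.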
